A study of Xenopus tropicalis with 132 samples.

Results

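Regions of open chromatin that were called in Xenopus tropicalis embryos at stage 10.5, and not at the earlier or later stages examined, were described by their strength, their width and their presence in explants of the same stage. Members were chosen from peak lists. For each stage the peaks of both replicate lists were merged, and a merged region was kept if it held a peak of each list. A stage 10.5 region was a member if it overlapped, by 1 base or more, no such region of stage 9, 12 or 16. The rule gave 4210 members among 29371 stage 10.5 regions, or 14.3%. They are called the stage 10.5-only regions here, a name for the rule and not for closed chromatin at the other stages, since most of them did hold a peak in at least 1 list of another stage.

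The study measured open chromatin in whole embryos, explants and single cells, and RNA in explants, some of them injected with mRNA, of a diploid frog widely used to study early development. Used here were 12 bulk ATAC-seq libraries, in which a transposase inserts sequencing adapters into accessible DNA, with 2 libraries per group. Whole embryos were taken at stage 9 (blastula), stage 10.5 and stage 12 (both gastrula) and stage 16 (neurula). Explants of the animal cap (AC) and of the dorsal marginal zone (DMZ) were taken at stage 10.5. The labels give no treatment, injection or genotype for any of these 12 libraries and no number of embryos or explants behind a library, and nothing says whether replicates came from separate clutches, so a p-value measures only the spread between these libraries. Each group therefore averages over cell types. In such bulk libraries fewer cells with an open site and less accessibility per cell cannot be told apart. The labelled tissue of the explants could not be checked against marker genes in these lists.

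As background, stage 9 follows the onset of transcription from the embryo's own genome. At stage 10.5 the dorsal blastopore lip has formed and mesoderm and endoderm begin to move inside. The animal cap is the roof of the blastula and gives rise to epidermis and neural tissue, while the dorsal marginal zone contains the organizer, the tissue that induces the neural plate and patterns the dorsal axis. Promoters and enhancers that are bound by transcription factors lose nucleosomes and become accessible to the transposase. Promoters tend to stay open over development, and accessibility at enhancers changes more with stage and cell type. Whether a stage 10.5-only region is a promoter or an enhancer was not analysed here: the genome build of the lists is not given in the sources used here, and regions were joined neither to genes nor to sequence.

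The lists differed in length, and the rule depends on that. Stage 9 had the shortest lists of whole embryos, with 10204 and 19883 peaks. Stage 10.5 had 38241 and 68786, stage 12 had 46198 and 37506, and stage 16 had 112446 and 81806. The AC lists held 37443 and 42006 peaks and the DMZ lists 14897 and 16087. Sequencing depth behind the lists is unknown. Both replicates held 6196 regions in common at stage 9, 26385 at stage 12 and 56132 at stage 16. The AC explants gave 25517 such regions and the DMZ explants 9586. The count of members depended on the lists required. With the stage 10.5 list of replicate 2 alone it was 29093 of 68786 regions (42.3%), and with that of replicate 1 alone 7937 of 38241 (20.8%). It was 1383 of 29371 (4.71%) where a peak in either replicate of another stage removed a region. With the 10000 peaks of highest −log10 q-value of each list it was 1044 of 7171 (14.6%). That share is near the 14.3% of the full lists.

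Stage 10.5-only regions were weak and narrow among the stage 10.5 regions. This describes the values that chose them, and no test is given. Strength is the deposited fold enrichment at the peak summit over local background, taken in each region as the lower of the values in both replicates. Its median was 5.48 in the stage 10.5-only regions (interquartile range 4.75 to 6.27, full range 3.31 to 14.2). It was 7.84 in the 14465 regions that were called at stages 10.5, 12 and 16 and not at 9, which are named the kept regions below. In the 4951 regions called at all 4 stages it was 14.1. Low strength was not particular to the members. The median was 5.72 in the 4074 regions called at stages 10.5 and 16 and not at 9 or 12. It was 6.01 in the 1075 called at 10.5 and 12 and not at 9 or 16. The members' values are those of members as called from the full lists. With 10000 peaks of each list the rule gave 1044 members, 25 of them with the same coordinates as a region among the 4210. Overlap with the 4210 at shifted edges was not counted. The 1044 had a median fold enrichment of 11.4 and a median width of 427.5 bases. That cut keeps the peaks of highest −log10 q-value, and medians of the other regions under it were not computed. It therefore does not show whether those 1044 were weak or narrow among the regions left. Of the stage 10.5-only regions 2381, or 56.6%, fell in the weakest quartile of all stage 10.5 regions, 1379 in the second, 426 in the third and 24 (0.570%) in the strongest.

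Both libraries placed the stage 10.5-only regions low. The median fold enrichment was 5.66 in replicate 1 and 7.51 in replicate 2, against 8.15 and 11.3 in the kept regions and 14.1 and 19.96 in those called at all 4 stages. Replicate 2, the longer list, gave the higher value in 77.6% of the stage 10.5-only regions and in 81.6% of all other regions. The deposited −log10 q-values had medians of 5.51 and 8.98, against 9.85 and 17.01 in the kept regions. Across the stage 10.5-only regions, Spearman's rho between the fold enrichments of the replicates was 0.243 (n = 4210 regions that share 2 libraries), and across all stage 10.5 regions it was 0.710 (n = 29371). It was 0.317 across the regions called at 10.5 and 16 (n = 4074) and 0.430 across those called at 10.5 and 12 (n = 1075). The narrow range of strengths among the members goes with their lower value, and its part in it was not tested.

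**Figure D1:**
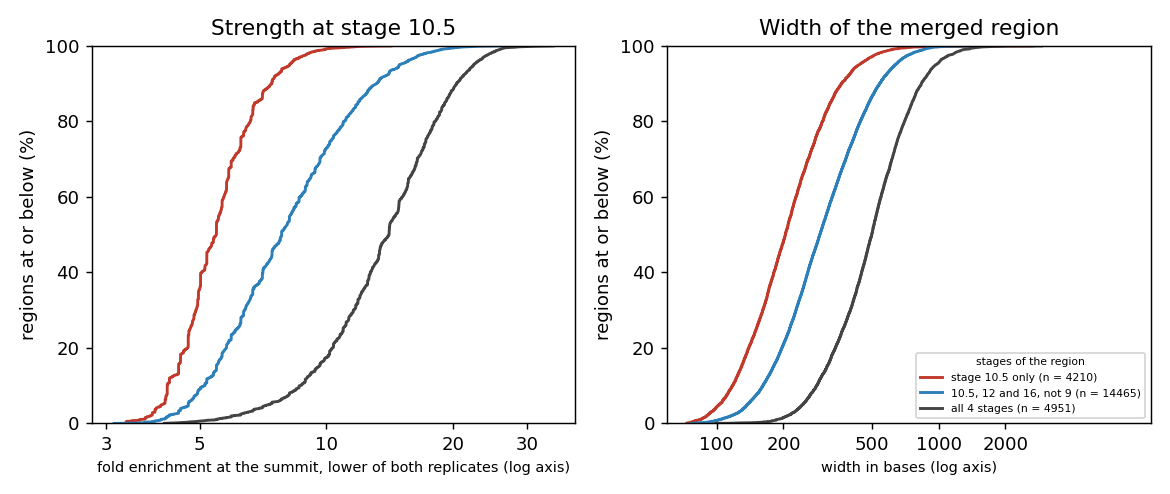
Cumulative share of regions (vertical axes, %) by fold enrichment at the stage 10.5 summit, lower of both replicates (left, log axis), and by width of the merged region in bases (right, log axis), for stage 10.5-only regions, kept regions and regions called at all 4 stages. The medians are 5.48, 7.84 and 14.1 in fold enrichment and 204, 292 and 499 bases in width, so the 3 curves are ordered alike in both panels.

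The merged stage 10.5-only regions had a median width of 204 bases (interquartile range 151 to 277), against 292 bases in the kept regions and 499 in those called at all 4 stages. The strongest single peak in each region measured 107 bases at the median in replicate 1 and 180 in replicate 2. No deposited peak is narrower than 73 bases, and the lower quartile of the replicate 1 peaks in the stage 10.5-only regions was 79 bases. Most of these regions, 96.3%, were built from a single peak of each replicate, compared with 88.4% of the kept regions and 76.7% of those called at all 4 stages. Neither trait was particular to the members. Regions called at 10.5 and 16 had a median width of 198 bases, and 96.1% were built from such a pair. For those called at 10.5 and 12 the values were 257 bases and 93.5%. The summits of both replicates lay 38 bases apart at the median, and within 100 bases in 88.4% of the stage 10.5-only regions. In the kept regions these values were 35 bases and 87.8%. The rule requires a peak of each replicate in a merged region, and the region's width limits this distance, so these values describe the members only.

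The widest stage 10.5-only region measured 2653 bases and the longest merge held 4 peaks. The widest kept region measured 1515 bases and the widest called at all 4 stages 2908, with up to 6 and 8 peaks in a merge. Members made up between 11.5% (Chr09) and 16.0% (Chr08) of the stage 10.5 regions of each of the 10 chromosomes, and 13.1% of those on unplaced scaffolds.

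Most stage 10.5-only regions lay apart from one another. When members at most 10000 bases apart were chained, 3284 of 4210 stood alone and 686 fell in pairs, and the 3 longest chains held 6 members each. The first of these, Chr03:111634575-111658736, spanned 24162 bases with 10 stage 10.5 regions, of which 6 were members. Fold enrichments of these 6 ran from 3.60 to 7.07, and 2 of them lay in AC regions and 1 in a DMZ region. No equally large set of other stage 10.5 regions was chained, so the chain counts describe the members only. Positions are 1-based in the chromosome names and coordinates of the deposited lists, whose build is not given in the sources used here. The distance to the nearest other stage 10.5 region had a median of 5444.5 bases for members and 2463 for kept regions. Such a neighbour lay within 1000 bases of 21.4% of the members and of 37.4% of the kept regions.

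At the edge of the rule, 54 members touched or came within 50 bases of a region called at another stage, with a median fold enrichment of 5.00 and width of 191.5 bases. Just outside it, 36 stage 10.5 regions were not members although another stage covered only 1 to 50 of their bases. Those had a median fold enrichment of 4.97 and a width of 173.5 bases. A further 252 members lay 51 to 200 bases from a region of another stage, 737 lay beyond that and up to 1000 bases away, and 1879 from there up to 10000 bases away. The remaining 1288 lay farther off, or on a scaffold with no region of another stage.

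Many stage 10.5-only regions held a peak at another stage in 1 replicate list. No peak of any of the 6 lists of stages 9, 12 and 16 was found in 1383 members, or 32.9%. A further 1574 had a peak in 1 of these lists, 1023 in 2, 210 in 3, and 20 in 4 or 5. In 108 members both replicates of another stage had a peak, in separate places that did not merge. Stage 16 contributed most, with peaks of replicate 1 in 1241 members and of replicate 2 in 852. At stage 12 these were 846 and 568, and at stage 9 they were 233 and 593. The longest lists held a peak in the most members. Stage 9 replicate 2, with 19883 peaks, had one in more members than stage 12 replicate 2, with 37506. The rule removes regions held by both lists of a stage, so the count of each list also depends on the other list of its stage. The part of list length in these counts was not tested. The share of all stage 10.5 regions with a peak in each of these lists was not computed, so the counts describe the members only. By stage rather than list, 959 members had a peak at stage 16 alone, 353 at stage 12 alone, 296 at stage 9 alone, and 729 at stages 12 and 16.

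The explant lists were not used to choose the members, and they come from other libraries of the same stage. They read the regions in parts of the embryo, while the members were called in whole embryos. Tissue outside AC and DMZ is in neither explant. A peak was found in 1725 of the 4210 stage 10.5-only regions in AC replicate 1 and in 1777 in AC replicate 2, or 41.6% ± 0.873 (SD, n = 2 libraries). Among all 29371 stage 10.5 regions the shares were 71.9% and 75.3%. In DMZ the lists held a peak in 492 and 472 members, or 11.4% ± 0.336 (SD, n = 2), against 38.6% and 42.8% of all stage 10.5 regions. In each of the 4 explant libraries the share was thus lower in stage 10.5-only regions than in all stage 10.5 regions, and in both explants by more than the replicates differed.

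Regions held by both AC lists overlapped 1242 members, or 29.5%, where the share over all stage 10.5 regions was 65.8%. With the stage 10.5 lists of replicate 2 or 1 alone, 11.9% or 18.7% of the larger member sets overlapped an AC region. Minus the share of the other stage 10.5 regions under the same setting, this was −42.2 or −47.1 percentage points. Regions held by both DMZ lists overlapped 173 members, or 4.11%, where the share over all was 29.8%. That share was 2.27% when the stage 9 list of replicate 2 alone stood for stage 9. It was 1.02% and 2.80% with the stage 10.5 lists of replicate 2 and 1 alone, and 11.2% and 11.7% with the DMZ lists of replicate 2 and 1 alone. Where a peak in either replicate of another stage removed a region it was 1.52%, and with 10000 peaks of each list it was 28.5%. The other stage 10.5 regions moved too. Under these last settings the members' DMZ share minus theirs was −29.7 and −41.9 percentage points. With the DMZ lists of replicate 2 and 1 alone that difference was −36.9 and −31.4. With the stage 9 list of replicate 2 alone it was −31.4, and with the stage 10.5 lists of replicate 2 and 1 alone −21.3 and −26.8. The AC share was 19.7% where either replicate removed a region, and 6.10% with the explant lists cut to the shortest. The AC differences there were −48.4 and −36.4 percentage points.

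Split by explant, 1115 stage 10.5-only regions (26.5%) lay in an AC region and no DMZ region, where 36.9% of all stage 10.5 regions did. Those in both explants numbered 127, or 3.02%, against 28.9% of all. A DMZ region without an AC region was found for 46 members, or 1.09%, against 0.865% of all. Of the 1242 members in AC regions 10.2% also lay in a DMZ region, while 46.3% of the other stage 10.5 regions in AC did. The pooled others include stronger regions. For regions called at 10.5 and 16 this share was 11.3%, and at 10.5 and 12 it was 17.3%. By quartile of strength over all stage 10.5 regions, weakest first, members had 5.17%, 9.64%, 21.6% and 31.25% (16 members in the last). The others had 7.81%, 14.9%, 35.1% and 80.5%. Of the 173 members in DMZ regions 73.4% also lay in an AC region, against 97.6% of the other stage 10.5 regions in DMZ. It was 85.1% at 10.5 and 16 and 81.9% at 10.5 and 12. None of the 4 explant lists had a peak in 1790 members, or 42.5%, against 16.4% of all stage 10.5 regions. All 4 had one in 138 members, or 3.28%, against 29.6% of all.

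**Figure D2:**
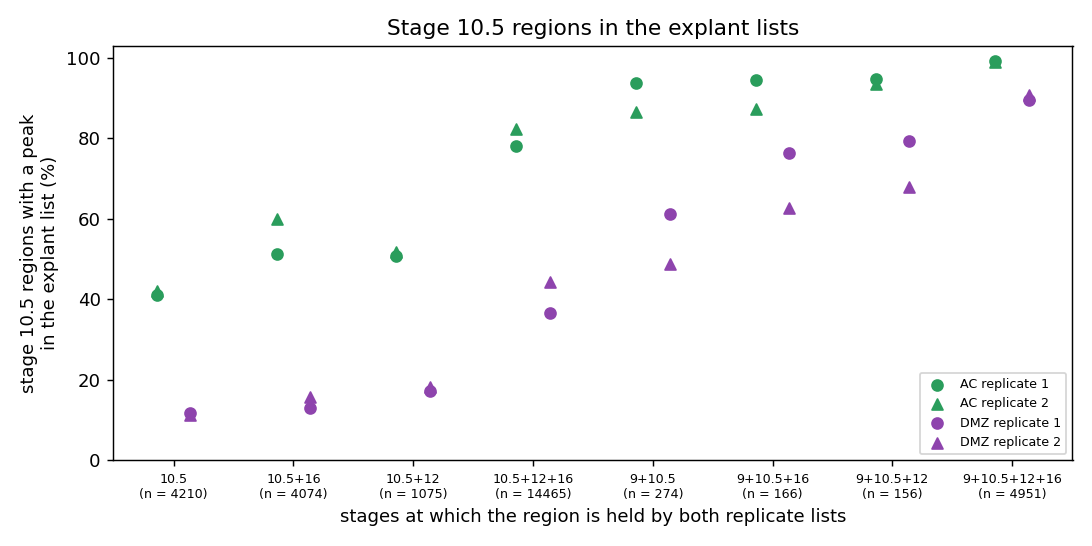
Share of stage 10.5 regions with a peak in each explant list (vertical axis, %), by the stages at which the region was held by both replicates (horizontal axis, with the number of regions); circles are replicate 1 and triangles replicate 2. The stage 10.5-only regions at the left have the lowest shares, 41.0% and 42.2% in AC and 11.7% and 11.2% in DMZ, and regions called at all 4 stages have 99.2% and 98.95%, and 89.5% and 90.8%.

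Among the 8 combinations of stages that include 10.5, the stage 10.5-only regions had the lowest share in every explant library. Next came the 4074 regions called at 10.5 and 16, with 55.6% ± 6.07 in AC and 14.4% ± 1.77 in DMZ (SD, n = 2), and the 1075 called at 10.5 and 12, with 51.3% ± 0.789 and 17.7% ± 0.855. The order of these 2 combinations differed between the explants. Kept regions had 80.2% ± 3.04 in AC and 40.5% ± 5.60 in DMZ. The 274 regions called at stages 9 and 10.5, and no later, had 90.1% ± 5.16 in AC and 55.1% ± 8.77 in DMZ. Their median stage 10.5 fold enrichment, lower of both replicates, was 6.71, under the 7.84 of the kept regions. By replicate it was 6.80 against 8.15 in replicate 1 and 12.99 against 11.27 in replicate 2. They were also wider, with a median of 359.5 against 292 bases. The explant lists share the embryos' stage but not their libraries, and the combinations differ in strength and width.

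Strength went with presence in explants, and members were weak, so the shares were compared within quartiles of fold enrichment set on all stage 10.5 regions. In the weakest quartile AC peaks were found in 33.9% ± 0.297 of the stage 10.5-only regions and in 51.1% ± 3.798 of all others (SD, n = 2 libraries). In the second quartile these shares were 47.5% ± 2.31 and 69.1% ± 3.82, and in the third 63.3% ± 0.166 and 87.1% ± 2.86. The strongest quartile held only 24 stage 10.5-only regions, with 75% ± 5.89 against 98.3% ± 0.686. The difference had the same direction in each quartile and in both AC libraries.

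In DMZ the same quartiles gave 6.68% ± 0.178 against 10.9% ± 1.52, 14.1% ± 0.256 against 21.1% ± 3.14, 27.7% ± 0.996 against 47.6% ± 5.40, and 43.75% ± 8.84 against 87.4% ± 3.39 (SD, n = 2). Against all other regions pooled, the members' share was thus lower in each quartile. Against the combinations most like them the difference was smaller. In the second quartile the AC share was 51.2% ± 1.45 in regions called at 10.5 and 12 and 60.2% ± 6.22 in those called at 10.5 and 16, both above the members' in each AC library. The DMZ share there was 13.9% ± 1.82 and 15.1% ± 2.26, and in DMZ replicate 1 the members' 14.3% was above the 12.6% and 13.5% of these combinations. In the weakest quartile DMZ replicate 2 gave members 6.55% against 6.53% at 10.5 and 12. DMZ replicate 1 gave 28.4% against 28.0% at 10.5 and 16 in the third. In the strongest, AC replicate 1 gave 79.2% against 74.4% at 10.5 and 12. In the remaining comparisons of these other quartiles the members' share was not higher. Within a quartile the members still tended to the weaker end, which the quartiles do not remove: in the strongest they reached 14.2 and the others 34.6. Width differed within quartiles as well. From weakest to strongest, median widths were 180, 226, 276 and 350 bases in members and 192, 240.5, 320 and 472 in all others. Regions called at 10.5 and 16 had 174, 207, 255 and 331 bases. The part of width was not tested.

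**Figure D3:**
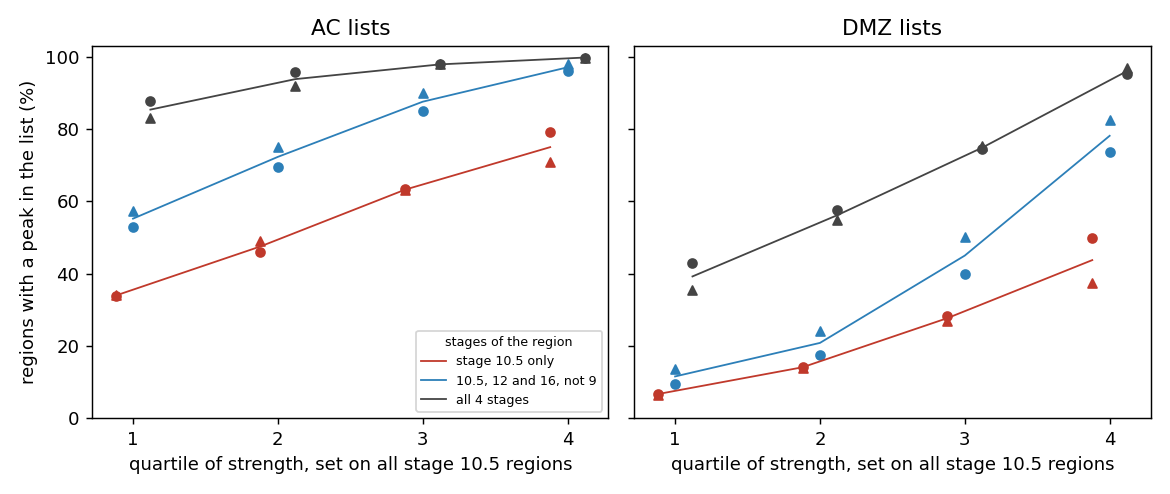
Share of regions with a peak in an explant list (vertical axis, %) within quartiles of stage 10.5 fold enrichment (1 weakest, 4 strongest; lines are means of 2 libraries, circles replicate 1, triangles replicate 2), for AC (left) and DMZ (right). In AC the stage 10.5-only regions rise from 33.9% to 75% and stay below the kept regions, which rise from 55.2% to 97.1%; in DMZ they rise from 6.68% to 43.75% against 11.6% to 78.1%.

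Relative to the other stage 10.5 regions, the members' share was 0.532 and 0.522 times as large in the AC libraries and 0.271 and 0.233 times as large in the DMZ libraries. On the log2 scale the ratio was higher in AC by 1.07, with p = 0.333 in an exact two-sided permutation test of 2 against 2 libraries, the smallest p this design allows. This difference moved when the lists were cut to 1 length. When each explant list was cut to the 14897 peaks with the highest −log10 q-values, the length of the shortest list, the members' shares were 13.97% and 9.55% in the AC libraries. In the DMZ libraries they were 11.7% and 9.74%. The libraries of the explants then overlapped, the ratios were 0.275 and 0.190 in AC and 0.271 and 0.213 in DMZ, and the log2 difference was −0.076 (exact permutation p = 1). Regions held by both cut lists of an explant overlapped 257 members, or 6.10%, in AC and 156, or 3.71%, in DMZ. The difference from the other stage 10.5 regions was −36.4 percentage points in AC and −29.5 in DMZ. In single cut lists the other regions too had higher shares in AC, 50.9% and 50.4%, than in DMZ, 43.1% and 45.7%. The AC peaks lost by the cut were those with a −log10 q-value under 10.2 in replicate 1 and 10.6 in replicate 2. The DMZ lists after the cut reached down to 2.00 in replicate 1 and 3.51 in replicate 2. The cut lists were thus alike in length and not in their lowest q-value. With a −log10 q-value of at least 5 required in every list the log2 difference was 1.05, and with 10000 peaks of each list it was 0.055.

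**Figure D4:**
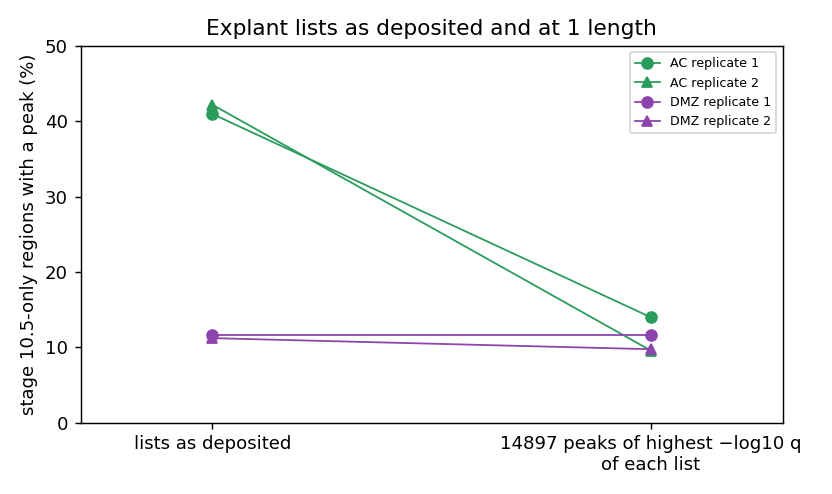
Share of stage 10.5-only regions with a peak in each explant library (vertical axis, %), with the lists as deposited and with the 14897 peaks of highest −log10 q-value of each list (horizontal axis). The AC shares fall from 41.0% and 42.2% to 13.97% and 9.55% and reach those of DMZ, which are 11.7% and 11.2% as deposited and 11.7% and 9.74% after the cut.

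Within the stage 10.5-only regions, presence in explants rose with strength and with width. From their own weakest to strongest quartile of fold enrichment the share in AC regions was 19.8%, 22.4%, 30% and 46.3%, and that in DMZ regions 1.52%, 1.52%, 3.33% and 10.3%. By width, members of 73 to 151 bases lay in AC regions in 13.8% and in DMZ regions in 0.657%. Members of 278 bases or more did so in 47.1% and 11.5%. A wider region has more room for an overlap, and the part of this was not tested.

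The 127 members found in both explants were the strongest and widest of these sets, with a median fold enrichment of 7.02 in replicate 1 and 13.2 in replicate 2 of the whole embryos and a width of 368 bases. Those in AC and not DMZ had 5.87, 9.53 and 241 bases. The 46 in DMZ and not AC had 6.42, 10.998 and 344 bases. The 1790 with no explant peak had 5.48, 6.27 and 177 bases. In the explants themselves, AC peaks over the 127 shared members had a median fold enrichment of 9.02 and 9.12, above the 7.23 and 7.02 over members in AC and not DMZ. All of these AC values are under the 14.9 and 15.3 over regions called at all 4 stages.

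Members with a peak in a stage 9 list had higher shares in the explants than other members. Of the 786 stage 10.5-only regions with a peak in either stage 9 list, 60.6% lay in an AC region and 14.1% in a DMZ region. Both were under the shares over all stage 10.5 regions, 65.8% and 29.8%, which pool all strengths. In the weakest quartile of strength they were 48.7% and 5.81%, against 32.7% and 2.90% of all regions. In the second they were 62.4% and 13.4% against 53.6% and 8.50%, and in the third 78.5% and 29.4% against 79.6% and 29.0%. The 15 in the strongest had 73.3% and 33.3% against 97.4% and 78.9%. In single libraries the shares of the 786 were 71.1% ± 4.32 in AC and 28.8% ± 8.19 in DMZ (SD, n = 2). The 2041 members with a peak at stage 12 or 16 and none at stage 9 had 37.5% ± 3.33 and 8.06% ± 2.04. In the 1383 with no peak at any other stage the shares were 30.8% ± 0.205 and 6.58% ± 0.614. The set with stage 9 peaks lay above both others in every explant library. The set with later peaks lay above the set with none in both AC libraries, by less than the set with stage 9 peaks did. The sets differed in width too, with medians of 269.5 bases with stage 9 peaks, 197 with later peaks and 186 with none.

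Within the 3 weaker quartiles of strength, members with a stage 9 peak lay above both other sets in every explant library. The set with later peaks and the set with none kept no fixed order: in the third quartile AC replicate 1 gave 49.43% and 49.44%, and in each of the 3 quartiles 1 DMZ library had the lower share in the set with later peaks. In the weakest quartile AC peaks were found in 60.8% ± 6.16 of the 310 members with a stage 9 peak, 32.8% ± 2.30 of the 1166 with later peaks and 26.1% ± 0.078 of the 905 with none (SD, n = 2). In the second they were found in 74.2% ± 3.32, 42.0% ± 5.49 and 37.0% ± 0.918, and in the third in 84.4% ± 2.17, 50.9% ± 2.03 and 48.9% ± 0.795. In DMZ the third quartile gave 45.4% ± 8.68, 17.2% ± 4.88 and 15.7% ± 1.59. The strongest quartile held 15, 5 and 4 such members, and the sets are not compared there. High shares with a stage 9 peak were not particular to the members. In the weakest quartile AC peaks were found in 84.3% ± 4.04 of the 70 regions called at stages 9 and 10.5 only. In the 65 called at all 4 stages the share was 85.4% ± 3.26 (SD, n = 2). The stage 9 lists are the shortest of the 4 stages and so hold fewer sites than the later ones. The members with a stage 9 peak were also wider. Their median widths in the 3 quartiles were 240, 260 and 326 bases. Those with later peaks had 174, 221 and 252.5 bases, and those with none 172, 209 and 252. The parts of list length and of width in the order of the member sets were not tested.

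**Figure D5:**
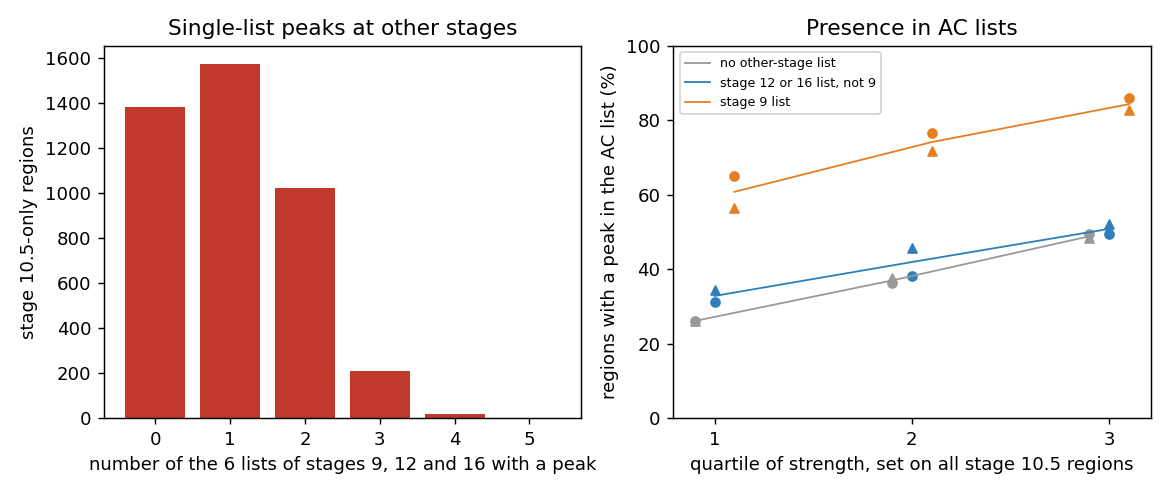
Left, number of stage 10.5-only regions (vertical axis) by how many of the 6 lists of stages 9, 12 and 16 held a peak in them. Right, share of those regions with a peak in an AC list (vertical axis, %) in the 3 weaker quartiles of stage 10.5 strength, by stage of the other peaks (lines are means of 2 libraries, circles replicate 1, triangles replicate 2); regions with a stage 9 peak run from 60.8% to 84.4% and those with no other peak from 26.1% to 48.9%.

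The 12 stage 10.5-only regions with the highest fold enrichment, lower of both replicates, ran from 11.6 to 14.2. They were strong among all stage 10.5 regions and moderate beside those called at all 4 stages. The first would rank 3265 of 29371, and 2305 of the 4951 regions called at all 4 stages, 46.6%, were above it. Of the 12, 8 lay in AC regions and 2 in DMZ regions, and 1 had no explant peak. All 12 fell in the strongest quartile of stage 10.5 regions. Of all regions in that quartile 97.4% lay in AC regions and 78.9% in DMZ regions, and 0.341% had no explant peak. Only 2 had no peak in any list of another stage.

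The strongest was scaffold_3950:5101-5319, with a fold enrichment of 14.2 in replicate 1 and 19.9 in replicate 2. It had no peak in any explant list, and it held single-list peaks at stage 9 (4.56), stage 12 (4.89) and stage 16 (12.1). This region meets the rule through the both-replicate requirement, and no region of another stage lay on its scaffold.

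On Chr09:79115336-79115916 the fold enrichment was 11.9 and 29.0 at stage 10.5. All 4 explant lists held a peak there, at 11.9 and 10.99 in AC and 10.96 and 7.46 in DMZ, with weaker single-list peaks at stage 9 (8.42), stage 12 (4.65) and stage 16 (4.26). Chr01:188347182-188347667 was the other of the 12 found in all 4 explant lists, with 12.1 and 22.3 at stage 10.5. Its explant peaks had 6.62 and 7.97 in AC and 6.48 and 5.23 in DMZ, and its other-stage peaks 8.45 at stage 12 and 4.13 and 7.04 at stage 16. Both of its stage 16 lists had a peak, without sharing a merged region.

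The 2 strongest regions with no peak in any other-stage list were Chr05:118269514-118269746, with 12.5 and 15.5 at stage 10.5, and Chr08:37506758-37507117, with 11.7 and 15.2. The first had a peak in AC replicate 2 (7.75) and in DMZ replicate 2 (7.13) and in neither replicate 1 list. In the second both AC lists held a peak, at 12.1 and 18.5, and neither DMZ list did. The Chr08 region was the 1 of the 12 with peaks in both stage 10.5 and both AC lists and in no other list.

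A few more of the 12 were open in AC lists and in no DMZ list. Chr03:60698422-60698762 had 11.6 and 15.4 at stage 10.5 and 11.04 and 12.6 in AC, with peaks of 5.47 at stage 9 and 5.63 at stage 12 in 1 list each. Chr04:118917991-118918395 had 11.8 and 16.0 at stage 10.5 and 10.5 and 7.72 in AC, and lay 102 bases from a region called at another stage. Chr07:33494306-33494756 had 11.7 and 17.6 at stage 10.5 and 6.84 and 5.40 in AC. Its only other-stage peak was in a stage 9 list, at 5.43. In these 3 regions every other-stage peak was under 6 in fold enrichment.

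Of the others, Chr07:78080105-78080463 had 12.2 and 21.2 at stage 10.5, 13.4 and 9.77 in AC and 8.08 in DMZ replicate 1. Its single other-stage peak, at stage 9, had 5.38. Chr02:98408619-98409140 had 12.6 and 16.0 at stage 10.5, 6.84 and 8.34 in AC and 5.51 in DMZ replicate 2. Both stage 12 lists had a peak in it, at 6.28 and 4.86, in separate places, and stage 16 replicate 2 had one at 7.74. Chr01:156182797-156183060, at 13.4 and 13.3, had a peak in replicate 1 of each explant, at 5.60 in AC and 7.31 in DMZ, and one of 5.11 in stage 12 replicate 1. Chr03:101502591-101502907, at 11.6 and 14.4, had 1 explant peak, in DMZ replicate 2 at 6.69, and a peak of 4.82 in stage 12 replicate 2. These last 2 were not held by both libraries of either explant.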

How the data were processed

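Peak lists of 12 ATAC-seq libraries were used, 1 per library. Per the submitters' processing notes Bowtie2 and MACS2 were used; versions and genome build are not given in the sources used here. Each list has 10 columns in the narrowPeak layout. The deposited fold column is the ratio of signal to local background at the summit. The deposited −log10 columns give a p-value and a q-value, with no −log10 q-value under 2, and the deposited score is that q-value column multiplied by 10 and cut to an integer, in at least 99.9976% of the peaks of each list. Depth is unknown, so no counting interval is given.

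Overlapping or touching peaks of both replicates were merged, regions holding a peak of each were kept, and an overlap of at least 1 base counted as shared (Python 3.11.15, pandas 2.3.3, numpy 2.4.6). Shares are given per explant library as mean ± SD. Explants were compared with an exact permutation test (scipy 1.17.1). The steps were tested on simulated intervals. Named regions are the 12 members with the highest lower-of-both fold enrichment. Members, lists and tests were chosen with earlier results of these data known; the cut of the explant lists to 1 length was added after the data were seen. RNA tables and single-cell ATAC fragments were not used: no annotation of the lists' build joins regions to genes, and the fragments use other chromosome names and coordinates. Gene names, motifs and sequences are therefore not reported.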

Additional observations from a re-analysis of the deposited data

How the results depend on the processing

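The lower shares of stage 10.5-only regions in AC and DMZ regions kept their direction against the other stage 10.5 regions under each alternative in which they were computed, while the number of members and the shares themselves moved. With peaks of a −log10 q-value of at least 5, 33.1% of members lay in AC and 4.70% in DMZ regions, and the difference in AC was −40.1 percentage points (−42.4 as reported). Requiring that 50% of a region be covered gave 3.23% in DMZ and differences of −37.1 (AC) and −18.2 (DMZ, −29.99 as reported). Letting a peak in either replicate of another stage remove a region left 1383 members among 29371 stage 10.5 regions (4.71%). Of them 19.7% lay in AC and 1.52% in DMZ regions, with an AC difference of −48.4. With 10000 peaks of each list there were 1044 members among 7171 stage 10.5 regions (14.6%). Of these members 25 had the same coordinates as a member as reported. The 1044 had a median fold enrichment of 11.4 and width of 427.5 bases. In AC regions lay 39.0% of them and in DMZ regions 28.5%, with a DMZ difference of −41.9. With the explant lists cut to the shortest, 6.10% lay in AC and 3.71% in DMZ regions, and the AC difference was −36.4. The difference between AC and DMZ libraries in the log2 ratio of shares then reversed, from 1.07 to −0.076. With 10000 peaks of each list this log2 difference was 0.055. It was 1.05 with a −log10 q-value of at least 5, 1.12 with 50% covered and 1.39 where either replicate removed a region. Widening other stages by 200 bases moved no share or difference of shares beyond the spread between replicates. It gave 3906 members and a log2 difference of 1.05, for which no such spread was computed.

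Leaving out 1 library at a time gave 3001 to 29093 members, 11.9% to 42.2% in AC, 1.02% to 11.7% in DMZ, differences of −47.5 to −36.1 (AC) and −36.9 to −21.3 (DMZ), and a log2 difference of 0.96 to 1.44. The counts of 29093 and 7937 came from stage 10.5 with replicate 2 or 1 alone. They were 42.3% of 68786 and 20.8% of 38241 stage 10.5 regions. With the replicate numbers of the labels as a block the log2 difference was 1.07 with an exact p of 0.5, the smallest for 2 pairs; nothing in the labels pairs AC and DMZ. The planned shares near gene starts and motif shares were not run, for want of a genome and annotation of the build. With 2 libraries a group, no test here can pass 0.05.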
